A study of Mus musculus with 4 samples.

Results

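miR-128 is a brain-enriched microRNA that is cut from a pair of hairpins, one in an intron of R3hdm1 and the other in an intron of Arpp21. Its 3 mature products were taken by name from the counts of small RNA sequencing, and they make 3 of the 1966 miRNA listed. The guide strand is miR-128-3p (mmu-miR-128-3p), and both hairpins release it with the same sequence. The passenger strand of the R3hdm1 hairpin is miR-128-1-5p (mmu-miR-128-1-5p), and that of the Arpp21 hairpin is miR-128-2-5p (mmu-miR-128-2-5p). The libraries came from primary cortical neurons of WT mouse embryos (2 libraries) and of embryos with the APP/PS1 transgenes, called TgAD (2 libraries). TgAD neurons carry a chimeric mouse/human amyloid precursor protein with the Swedish mutations and a human presenilin 1 that lacks exon 9, both under the mouse prion protein promoter. WT neurons came from embryos without the transgenes. Cortex was taken at E16.5 by the sample labels and less than 1 day earlier by the methods of the study, dissociated cells were kept for 5 days in vitro, and no sample had a treatment. The neurons of each embryo were grown apart and genotyped afterwards, and such a culture was the study's biological replicate. The TgAD cultures are embryonic neurons carrying transgenes for a disease of the aged brain.

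A miRNA hairpin is cut by Drosha in the nucleus and by Dicer in the cytoplasm into a short duplex. One strand, the guide, is kept by an Argonaute protein and pairs with target mRNA mainly through its seed, bases 2 to 8, while the passenger is released and degraded. miR-128 is one of the abundant miRNA of the mammalian forebrain, where it is known to dampen neuronal excitability and to act in the differentiation and migration of cortical neurons. The guide is the same from both hairpins, so reads that hold only its sequence do not show which gene they came from. Reads of the passengers do.

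The 3 mature strands are shown 5′ to 3′ with the seed in capitals, since the guide seed defines the target family and the passengers are what separates the 2 loci. The sequences are those of RefSeq for GRCm38.p6, and all 3 members matched by name.
miR-128-3p: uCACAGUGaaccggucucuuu
miR-128-1-5p: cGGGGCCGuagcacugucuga
miR-128-2-5p: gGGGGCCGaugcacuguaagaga
The passengers carry the same seed, which no other listed miRNA with a known sequence carries at these bases, and 16 of their 21 aligned bases are identical. The guide is 21 bases long and 47.6% G or C, against 66.7% in miR-128-1-5p and 60.9% in miR-128-2-5p. The hairpins differ more in the 14 bases between the arms, which are printed here without capitals because they hold no mature sequence.
Mir128-1 loop: gagguuuacauuuc
Mir128-2 loop: gugaguagcagguc

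Mir128-1 lies at chr1:128202361-128202430 on the plus strand of GRCm38.p6, within R3hdm1 (ENSMUSG00000056211.13, plus strand), which encodes a protein with an R3H nucleic acid binding domain. In GENCODE M21 it falls in an intron, from 128197098 to 128211204, of 2 of the 16 annotated R3hdm1 transcripts and in no exon, and the other 14 transcripts do not span it. Mir128-2 lies at chr9:112118636-112118711 on the minus strand, within Arpp21 (ENSMUSG00000032503.18, minus strand), whose product is a cyclic AMP regulated phosphoprotein of neurons. It falls in an intron of 9 of the 31 annotated Arpp21 transcripts and in no exon. Hairpin and host gene are on the same strand at both loci. The folded RefSeq hairpins had minimum free energies of -29.3 kcal/mol for Mir128-1 and -37.3 kcal/mol for Mir128-2, with 15 and 16 of the 21 guide bases paired to the passenger.

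The 4 libraries held 2070204 to 4811010 reads on miRNA, and 849 to 936 of the listed miRNA had a read. 1 miRNA, miR-99a-5p, took 15.8% to 16.7% of the reads in WT and 27.0% to 31.8% in TgAD. The deposited sources disagree on the libraries. In the separate table of normalized values, from which whole reads were recovered, the column named as the first WT library held exactly the reads of the file labelled TgAD replicate 1 (100% of 674 miRNA). The column named as the second WT library held those of WT replicate 1, and a column named as TgAD held a further library that matched no count file. WT replicate 2 stood in no column. The groups below are those of the sample labels, which name the count files, and values by the table's column names are given beside the main results. All counts are without molecular identifiers, so intervals on shares cover counting error only.

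miR-128-3p was higher in the libraries labelled TgAD by 2.80-fold (95% interval 1.56 to 5.02). Its reads numbered 43009 and 96201 in WT against 230643 and 240174 in TgAD. As CPM, reads scaled to the effective size of each library, this came to 18305 and 33040 in WT and 84058 and 59723 in TgAD, a mean of 25673 ± 10419 CPM against 71890 ± 17207 CPM (SD, n = 2 each). Both TgAD libraries lay above both WT libraries, so the groups did not overlap. The log2 fold change was 1.49 (SE 0.349), with an adjusted p of 0.0294 by the quasi-likelihood test of edgeR, adjusted after Benjamini-Hochberg over 496 miRNA. A miRNA was called when this adjusted p was under 0.1 and the log2 fold change over 0.6 in size. By that rule 33.1% of the tested miRNA were called, 15.7% as higher and 17.3% as lower in TgAD, and both TgAD libraries lay above both WT libraries for 30.6% and below them for 32.5%. The call of miR-128-3p thus stood in a comparison where a rise of this kind was common. In size, 16 of the 496 had a larger log2 fold change.

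The spread within WT was wide against that of most tested miRNA. WT replicate 2 had 1.80 times the level of WT replicate 1, and the WT libraries were at least as far apart for only 8.27% of the tested miRNA. Within TgAD, replicate 1 had 1.41 times the level of replicate 2. Without TgAD replicate 1, the library whose label the sources dispute, the log2 fold change was 1.12 and the adjusted p 0.119 by edgeR, so the call was lost. With the columns of the normalized table taken by name, where that library counts as WT, the log2 fold change was 0.49 and the adjusted p 0.825 by edgeR, and no miRNA of the table was called (54 had an unadjusted p under 0.05). With that further library added to TgAD it was 1.57 with an adjusted p of 0.0172 by edgeR.

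miR-128-3p was among the most abundant miRNA in the counts of these libraries. By reads it ranked 10 and 6 in WT and 2 and 5 in TgAD, and it took 2.08% and 3.49% of all reads in WT and 8.36% and 4.99% in TgAD. Among the 78 miRNA called higher, 1 had more reads. A change in its share of the reads cannot be told apart from a change in the neurons' share of the culture, since fewer cells of a type and less RNA per cell give the same counts in bulk samples.

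**Figure D1:**
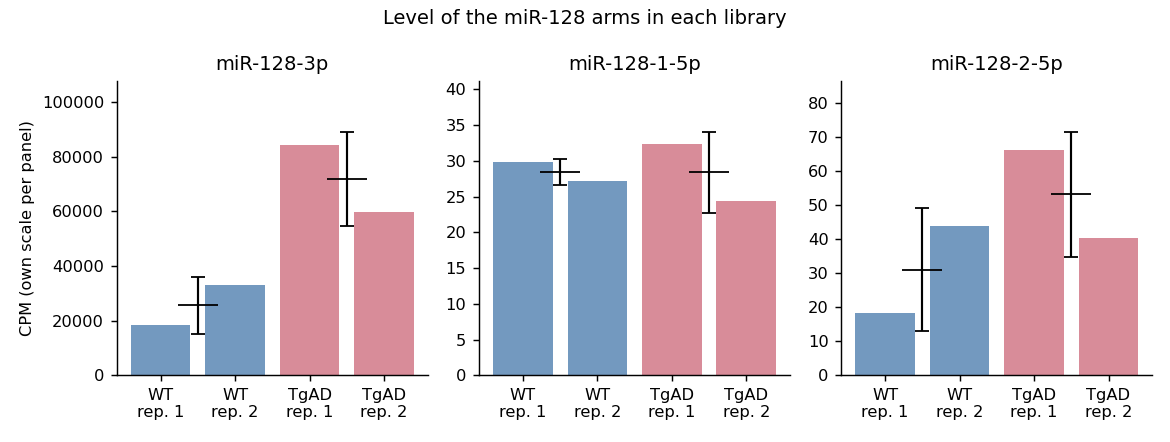
Bars give the level of each miR-128 arm in CPM in each of the 2 WT (blue) and 2 TgAD (red) libraries, on linear axes that start at 0 and differ in scale between panels, with black lines for the group mean ± SD. The TgAD bars of miR-128-3p (84058 and 59723 CPM) stand above both WT bars (18305 and 33040 CPM), while the groups overlap for both passenger arms.

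The passenger arms were rare, and neither passed the test. miR-128-1-5p, from R3hdm1, had 70 and 79 reads in WT and 89 and 98 in TgAD, or 29.8 and 27.1 CPM against 32.4 and 24.4 CPM. The means were 28.5 ± 1.88 and 28.4 ± 5.70 CPM (SD, n = 2 each), with both WT libraries between the TgAD libraries. The log2 fold change was -0.0081 (SE 0.276, 95% interval -0.67 to 0.66), with an adjusted p of 0.989 by edgeR. Changes within that interval were not excluded at this depth.

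miR-128-2-5p, from Arpp21, had 43 and 128 reads in WT and 182 and 162 in TgAD, or 18.3 and 44.0 CPM against 66.3 and 40.3 CPM. WT replicate 1 was the lowest of the 4, and WT replicate 2 stood above TgAD replicate 2, so the groups overlapped. The means were 31.1 ± 18.1 and 53.3 ± 18.4 CPM (SD, n = 2 each). The fold was 1.69 (95% interval 0.785 to 3.64), the log2 fold change 0.76 (SE 0.459) and the adjusted p 0.292 by edgeR. Single libraries decided this value, which on the log2 scale was 1.52 without WT replicate 2 (adjusted p 0.0172 by edgeR), 0.29 without WT replicate 1 and 0.26 without TgAD replicate 1. The 65 tested miRNA at least as rich in G and C as miR-128-2-5p had a median log2 fold change of 0.32, against 0.032 over all 496. With each library corrected for GC content the value for miR-128-2-5p was 0.47, that for miR-128-1-5p -0.35 and that for miR-128-3p 1.43.

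**Figure D2:**
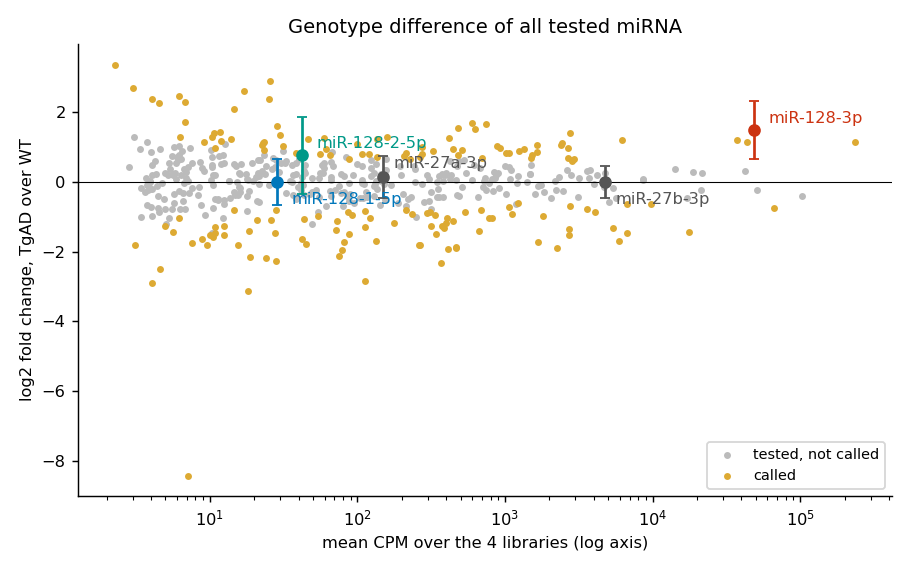
Each point is one of the 496 tested miRNA, with its mean CPM over the 4 libraries on a log axis and its log2 fold change of TgAD over WT, called miRNA in yellow, and the named miRNA with 95% intervals. miR-128-3p (log2 fold change 1.49) lies among the most abundant miRNA, and the intervals of both passengers and of miR-27a-3p and miR-27b-3p include 0.

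The guide outnumbered its passengers more strongly in TgAD. For each read of either passenger there were 381 and 465 reads of the guide in WT and 851 and 924 in TgAD, a mean of 423 ± 59.5 against 887 ± 51.4 (SD, n = 2 each). The groups did not overlap. Both strands are counted in the same library, so the ratio does not depend on how the libraries are scaled. It was 2.10-fold higher in TgAD (95% interval 1.13 to 3.91), a change of the log2 ratio of 1.07 (SE 0.398) with an adjusted p of 0.0749 by edgeR, fitted over 155 arm pairs and the pairs of loci together. Of the 155 arm pairs 39.4% were called by the same limits, 20.0% with a higher and 19.4% with a lower ratio in TgAD, and the ratio of both TgAD libraries lay above that of both WT libraries in 35.5%. The fit was fragile with 2 libraries per group. The adjusted p by edgeR was 0.197, 0.157 and 0.301 without WT replicate 1, TgAD replicate 1 and TgAD replicate 2 in turn, and with the columns of the normalized table by name the change was 0.68 (adjusted p 0.713). The library outside the count files had 912 guide reads per passenger read.

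Taken one by one, the ratio passed the test for the R3hdm1 passenger and not for the Arpp21 passenger, and the difference between the passengers is tested further on as the ratio of the loci. The guide reads can come from both hairpins, so guide reads per read of a single passenger are not the strand ratio of its hairpin. Against miR-128-1-5p alone the guide had 614 and 1218 reads per passenger read in WT and 2591 and 2451 in TgAD, a 2.90-fold change (95% interval 1.39 to 6.03) with an adjusted p of 0.0426 by edgeR. That call was lost without WT replicate 1 (adjusted p 0.163 by edgeR) and without TgAD replicate 2 (0.126), and it held without TgAD replicate 1 (0.0739). Against miR-128-2-5p alone it had 1000 and 752 in WT and 1267 and 1483 in TgAD, a change of the log2 ratio of 0.68 (SE 0.417, 95% interval -0.26 to 1.62) that did not pass the test (adjusted p 0.236 by edgeR). All of these ratios rest on 113 and 207 passenger reads in WT and 271 and 260 in TgAD. The passengers made up 0.262% and 0.215% of all miR-128 reads in WT and 0.117% and 0.108% in TgAD. In an exact two-sided permutation test over libraries, the guide level and the ratio each gave p = 0.333, the smallest p that 2 against 2 libraries allow (0.467 after Benjamini-Hochberg adjustment over 7 tests).

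**Figure D3:**
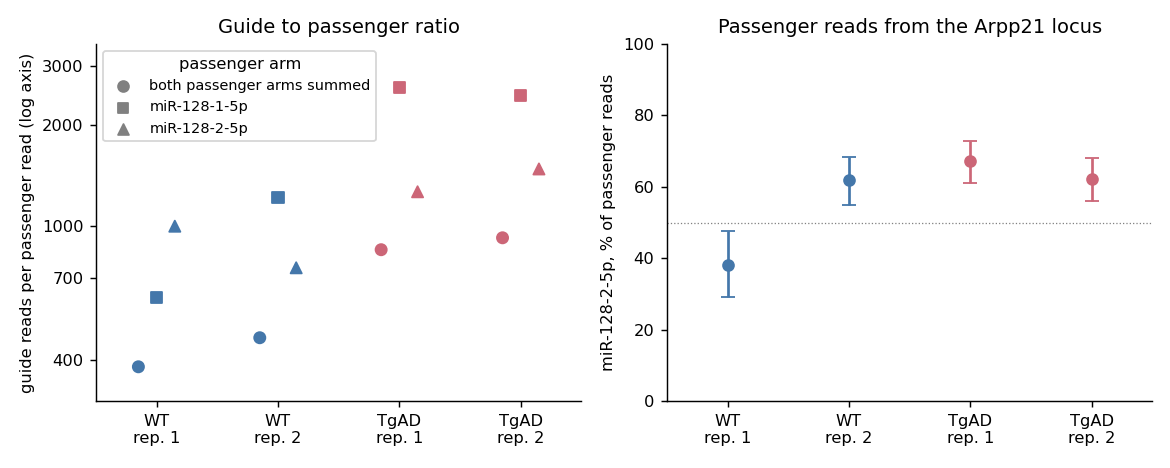
Left, guide reads per passenger read in each library on a log axis, for both passengers summed (circles) and for each alone (squares and triangles), with WT in blue and TgAD in red. Right, miR-128-2-5p as a percent of all passenger reads with exact 95% intervals, where WT replicate 1 (38.1%) lies below the other 3 libraries (61.8% to 67.2%).

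The Arpp21 locus gave most of the passenger reads in 3 of the 4 libraries. Its passenger made up 61.8% of passenger reads in WT replicate 2 (95% Clopper-Pearson interval 54.8 to 68.5), 67.2% in TgAD replicate 1 (61.2 to 72.7) and 62.3% in TgAD replicate 2 (56.1 to 68.2). In WT replicate 1 it made up 38.1% (29.1 to 47.7), an interval that does not reach those of the other 3. In the library outside the count files the share was 63.6%. The log2 ratio of miR-128-2-5p to miR-128-1-5p was 0.83 higher in TgAD (SE 0.496, 95% interval -0.29 to 1.94), which did not pass the test (adjusted p 0.225 by edgeR). That value rests on 1 library, being 0.18 without WT replicate 1 and 1.58 (adjusted p 0.0782 by edgeR) without WT replicate 2. Among the 9 miRNA whose separate loci could both be tested this way, 3 were called (33.3%). Those were miR-181a-2-3p over miR-181a-1-3p, with a log2 change of 1.30, let-7f-2-3p over let-7f-1-3p, with -1.19, and miR-30c-2-3p over miR-30c-1-3p, with -0.96, all named after their values were seen. The call of miR-181a held without each library in turn. That of let-7f was lost without WT replicate 2 (-0.73, adjusted p 0.397 by edgeR) or TgAD replicate 2 (0.202), and that of miR-30c without the filter on low counts (adjusted p 0.142 by edgeR), with the library outside the count files (0.414) and without WT replicate 1, WT replicate 2 or TgAD replicate 1 (0.154 to 0.312). By the column names of the normalized table none of the 3 was called. Passenger reads reflect what is left after strand selection and decay, so the share of a locus among them is not a measure of its transcription.

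miR-128 was one of the most lopsided arm pairs, with a geometric mean of 611 guide reads per passenger read against a median of 11.8 over the 155 pairs, where the arm with more reads in all counts as the guide. Only 7 pairs had a larger ratio in these counts, and 26 had a larger rise in TgAD. In 7 of the 17 pairs with a shared strand and locus-specific strands, the locus-specific strands had more reads and so counted as the guide. How reads that map to several loci bear on this ranking was not tested. The median change over all pairs was -0.0061 on the log2 scale.

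Other miRNA with 1 shared strand and locus-specific strands gave another setting for this ratio. There were 17 with a tested arm pair, and miR-128 had the highest ratio of shared to locus-specific reads among them. Of the other 16, 3 were called with a higher ratio in TgAD and 1 with a lower, no larger a share than the 39.4% called over all 155 arm pairs. The largest changes were those of miR-218, of the Slit2 and Slit3 introns, miR-103, of the pantothenate kinase introns, and miR-26a, of the Ctdsp introns. All 3 rest on few reads of the rarer strand. These numbered 31 and 52 in WT and 7 and 40 in TgAD for miR-218. For miR-103 they numbered 22 and 21 in WT and 9 and 10 in TgAD, and for miR-26a 18 and 20 in WT and 17 and 22 in TgAD. The shared strand of miR-218 had 88.0 and 43.0 reads per locus-specific read in WT and 323 and 164 in TgAD, a log2 change of 1.75 (adjusted p 0.0302 by edgeR). That change was 1.21 without WT replicate 2 and 2.40 without TgAD replicate 2, still called, and 0.036 by the column names of the normalized table (adjusted p 0.974 by edgeR). For miR-103 the ratios were 5.27 and 7.90 in WT and 17.8 and 22.3 in TgAD, a log2 change of 1.61 (adjusted p 0.0410 by edgeR). The call was lost with the library outside the count files (0.81, adjusted p 0.402 by edgeR) and without WT replicate 1 (adjusted p 0.263) or TgAD replicate 2 (0.212). For miR-26a the shared strand was the rarer one, at 0.0614 and 0.0521 in WT and 0.172 and 0.125 in TgAD, a log2 change of 1.36 (adjusted p 0.0591 by edgeR), and the call was lost without each of the 4 libraries in turn (adjusted p 0.160 to 0.236).

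**Figure D4:**
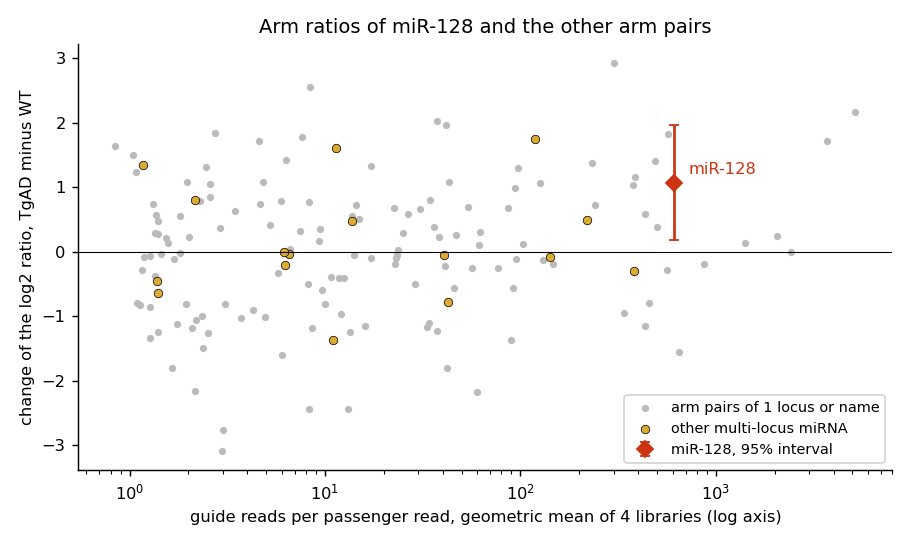
Each point is one of 155 arm pairs, with the geometric mean over the 4 libraries of guide reads per passenger read on a log axis and the change of the log2 ratio from WT to TgAD, where the guide is the arm with more reads in all. miR-128 (red, change 1.07 with its 95% interval) lies to the right, where only 7 pairs have a larger ratio, and the other 16 multi-locus miRNA (outlined) lie on both sides of 0.

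Reads of the guide can map to both loci. Its sequence and the 2 bases before it are the same in both hairpins, a common stretch of 23 bases, and the base after it is U in Mir128-1 and C in Mir128-2. A read that ends within the stretch maps equally well to both loci, and how such reads were counted is not given in the sources used here. Among the listed miRNA with a RefSeq sequence, 30 of the 53 with 2 or more loci had no read in any library (56.6%), against 646 of the 1622 with 1 locus (39.8%). In 7 of the 17 multi-locus arm pairs the shared strand had fewer reads than the locus-specific strands. miR-128-3p had the most reads of the 53, with 610027 over the 4 libraries, and the next was miR-92a-3p with 35110. The part of multiple placement in the level of miR-128-3p, and in its difference between genotypes, was not tested.

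The seed of miR-128-3p also stands in the miR-27 family, 1 base further from the 5′ end, so it is marked there in capitals to show the shared stretch.
miR-27a-3p: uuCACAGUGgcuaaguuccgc
miR-27b-3p: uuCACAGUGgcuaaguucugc
Neither miR-27 passed the test. miR-27b-3p, the more abundant, stood at 4902 and 4610 CPM in WT and 4411 and 5063 CPM in TgAD, with a log2 fold change of -0.0058 (adjusted p 0.989 by edgeR). miR-27a-3p stood at 161 and 123 CPM in WT and 134 and 176 CPM in TgAD, with a log2 fold change of 0.13 (adjusted p 0.739 by edgeR). The groups overlapped for both. The third miRNA with this stretch among its first 9 bases, miR-216a-3p, had 3 reads in all and was not tested.

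The miRNA whose levels followed miR-128-3p most closely over the 4 libraries were miR-330-3p, miR-125b-5p, miR-6988-3p, miR-377-5p and miR-296-5p. Likeness was the root mean square difference of log2 CPM after centring each miRNA on its mean over the 4 libraries, so it partly restates the genotype difference. It was 0.201 for miR-330-3p and 0.310 to 0.326 for the other 4, against a median of 0.872 over 495 miRNA. miR-330-3p had 62.6 and 99.6 CPM in WT and 197 and 182 CPM in TgAD, with the higher WT level in the same library as for miR-128-3p. All 5 were called higher, as 15.7% of all tested miRNA were, with log2 fold changes from 1.07 to 1.30, but since they were picked for likeness to a miRNA that was called higher nothing is read from that count. By edgeR, miR-6988-3p lost its call without each library in turn (adjusted p 0.113 to 0.304), with libraries scaled by their totals (0.161) and with the GC correction (0.142), and also by DESeq2 (0.247). miR-377-5p lost it without WT replicate 1 (adjusted p 0.170 by edgeR) or TgAD replicate 1 (0.102), and miR-125b-5p without WT replicate 1 (0.104) or with the library outside the count files (0.103). Of the passengers, miR-128-2-5p was the closer, with a difference of 0.372 and 11 miRNA nearer, while miR-128-1-5p had 0.847 with 236 nearer.

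As a neuronal miRNA, miR-128 was set beside 28 other neuron-enriched miRNA. Of these, 23 were tested and 7 called (30.4%, against 33.1% of all tested), 5 higher and 2 lower in TgAD, with a median log2 fold change of 0.098. Those called higher were miR-132-3p (log2 fold change 0.95), which is induced by neuronal activity, miR-139-5p (0.69), miR-149-5p (1.40), miR-323-3p (0.65) and miR-383-5p (0.93). miR-137-3p (-1.53), which acts in neuronal development, and miR-488-3p (-0.63) were lower. Of these 7 calls, those of miR-137-3p, miR-149-5p and miR-383-5p held without each library in turn. The call of miR-323-3p, with an adjusted p of 0.0983 by edgeR, was lost with RLE normalization (0.109), with libraries scaled by their totals (0.343), with the GC correction (0.392), with the library outside the count files (0.109) and when any 1 library other than TgAD replicate 1 was left out (0.157 to 0.296). That of miR-139-5p was lost with totals (adjusted p 0.241 by edgeR), the GC correction (0.229) and without WT replicate 1 (0.198) or TgAD replicate 1 (0.103). That of miR-488-3p was lost with the GC correction (adjusted p 0.361 by edgeR) and when any 1 library other than WT replicate 1 was left out (0.112 to 0.302), and that of miR-132-3p without TgAD replicate 1 (0.111). The list summed to 38574 to 40752 CPM in WT and to 38286 to 39064 CPM in TgAD, so the groups overlapped for the list as a whole. The defining neuronal miRNA miR-9-5p and miR-9-3p were at 0 reads in every library, and miR-124-3p had 1 and 2 reads in WT and 7 and 4 in TgAD. For a miRNA whose reads are all counted, 0 reads allows up to 0.746 to 1.28 CPM depending on the library (3 reads). In RefSeq the miR-9 strands have 3 loci each, so they share the question of multiple placement with the guide of miR-128, and that limit may not hold for them. Of the list, miR-138-5p, miR-218-5p, miR-7a-5p, miR-129-5p and miR-135a-5p have 2 loci each and share that question, so the summed level of the list does too. No number of loci was found by name for miR-124-3p, and the part of multiple placement in its low counts was not tested.

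Of the markers of other cells, the highest was miR-21a-5p, which is abundant in glia and other non-neuronal cells. It stood at 17138 to 22581 CPM in WT and 13721 to 15120 CPM in TgAD, with a log2 fold change of -0.46 (adjusted p 0.203 by edgeR). Both TgAD libraries lay below both WT libraries, as for 32.5% of all tested miRNA, but the difference was not called. All 3 oligodendrocyte miRNA were at 0 in every library, but miR-219a-5p has 2 loci, so its 0 carries the same doubt about multiple placement as those of miR-9. The 9 microglial and blood miRNA summed to 2075 to 2250 CPM in WT and 1728 to 1838 CPM in TgAD, so the groups did not overlap. In this list miR-142a-3p and miR-486a-5p were at 0. Of its 4 tested miRNA 1 was called (25%, against 33.1% of all tested). That was miR-451a of red blood cells, lower in TgAD (log2 fold change -0.72, adjusted p 0.0707 by edgeR). Its call was not tried under the alternatives or without single libraries. The 4 miRNA of endothelium and smooth muscle summed to 718 to 901 CPM in WT and 756 to 827 CPM in TgAD, with both arms of miR-126a at 0 and none of 2 tested called. Those of muscle and liver summed to at most 4.46 CPM. The part of these cells in the miR-128-3p difference was not tested.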

How the data were processed

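The authors received the 50 bp reads from the sequencing provider with adapters already removed. They mapped them with Bowtie2 to GRCm38 allowing no mismatch, and counted reads per mature miRNA of miRBase with HTSeq-count. Genotypes were compared with DESeq2. Tool versions are not given in the sources used here. They deposited whole counts per miRNA, 1 file per library, without normalization. They also deposited normalized values for 674 miRNA, a signal equal to counts divided by a size factor, from which 100% of values gave whole reads (tolerance 0.001 reads); its columns do not match the labels of the count files, so it was used only as an alternative, where edgeR called 0 miRNA.

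Here counts were scaled by TMM, filtered by filterByExpr and tested with edgeR 4.0.16 (limma 3.58.1, R 4.3.3; quasi-likelihood test, genotype only). Arm ratios were tested in 1 edgeR fit over all arm pairs with terms for library and arm. Shares have exact binomial intervals. Hairpins were folded with ViennaRNA 2.7.2, and DESeq2 1.42.0 was an alternative. Procedures were tested on simulated data. The p values of edgeR rest on the spread between these libraries, pooled in part over all miRNA or pairs in the fit. A fit without 1 library assumes that the lone library varies like the others. Alternatives added after the data were seen were the GC correction (local regression, span 0.75) and the library outside the count files.

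The members and lists were chosen with earlier results of these data known. Named were the 3 members, miRNA holding the guide seed among their first 9 bases, the 5 closest in pattern, the 3 multi-locus miRNA with the largest ratio change, and neuron-enriched miRNA that were called.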

Additional observations from a re-analysis of the deposited data

How the results depend on the processing

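The direction of the miR-128-3p difference held under all 11 alternatives (log2 fold change 0.49 to 1.57) and without each library in turn (1.12 to 1.96). Its call was lost with the normalized table's columns taken by name (0.49) and without TgAD replicate 1. With those columns the ratio of the guide to both passengers changed by 0.68 and to miR-128-1-5p by 0.96 on the log2 scale, neither called, the log2 ratio of miR-30c-2-3p to miR-30c-1-3p turned to 0.55, and the number of called miRNA fell from 164 to 0. That setting has other libraries in the groups. miR-128-1-5p stood near 0 and turned sign when the library outside the count files was added (0.075). miR-27a-3p turned to -0.15 when libraries were scaled by their totals and to -0.19 with the GC correction. Total counts moved the median of all tested miRNA from 0.032 to -0.23 and the split of calls from 78 higher and 86 lower to 43 and 122, with miR-128-3p still called (1.26).

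Without each library in turn, the values ran from -0.32 to 0.22 for miR-128-1-5p, 0.26 to 1.52 for miR-128-2-5p, -0.068 to 0.35 for miR-27a-3p and -0.079 to 0.054 for miR-27b-3p. The log2 change of the guide to passenger ratio ran from 0.93 to 1.22, to miR-128-1-5p from 1.05 to 2.04 and to miR-128-2-5p from 0.46 to 0.87. That of the ratio between the loci ran from 0.18 to 1.58, and the number of called miRNA from 118 to 143.

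With the replicate number as a block, miR-128-2-5p was called (log2 fold change 0.80, adjusted p 0.0421 by edgeR) and the count of calls was 188. The difference between replicates 1 and 2 in WT correlated across miRNA with that in TgAD at r = 0.216, but with 2 numbers that does not show pairing. Over the other named miRNA and pairs, all alternatives and left-out libraries gave 209 values with the same direction and call, 58 with the same direction and no call, and 6 of the opposite sign. The depth of the miR-128 passengers, 43 to 182 reads per library, limits every ratio of miR-128.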
